A study of Homo sapiens and Mus musculus with 17 samples.

Results

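The 10 genes described here encode receptors for ER-phagy and proteins of the autophagy machinery that these receptors engage. They were chosen by symbol, ignoring case, and all 10 were found both among the 62714 human genes of the HEK293T table and among the 55491 mouse genes of the brown adipose tissue (BAT) table. The values come from polyA-enriched RNA-seq and are given as FPKM, the fragments of a gene divided by its length and by the total of its library. The study removed SEL1L or HRD1, the scaffold and the ubiquitin ligase of an ER-associated degradation (ERAD) complex, to find proteins that the complex degrades, and RNA-seq was used to see which mRNAs changed with the loss.

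HEK293T is an established human embryonic kidney cell line. The 9 HEK293T libraries came from 3 cultures of WT, 3 of SEL1L KO and 3 of HRD1 KO cells. The KO cells were made with CRISPR/Cas9, and WT cells had received the empty plasmid without a guide RNA. The sources used here do not say whether a KO line was 1 clone. The 8 BAT libraries came from C57BL/6J mice aged 12 weeks, of which 3 were WT, 3 carried Sel1l flox/flox with Ucp1-Cre and 2 carried Hrd1 flox/flox with Ucp1-Cre. The Ucp1 promoter drives Cre in brown adipocytes, so blood vessel, immune and connective tissue cells of the same sample keep the gene. In bulk tissue, fewer cells of a type and less RNA per cell cannot be told apart.

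ER-phagy is the selective autophagy of the endoplasmic reticulum. A receptor in the ER membrane, or one recruited to it, binds proteins of the ATG8 family (LC3 and GABARAP) on the growing autophagosome, and the captured piece of ER is broken down in lysosomes. ERAD instead moves single misfolded proteins out of the ER to the proteasome, and cells use both routes to keep the ER clear. Some of these genes, such as SQSTM1 and CCPG1, are known to be transcribed more under oxidative or ER stress.

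SEL1L mRNA was lower in SEL1L KO than in WT HEK293T cells, with an FPKM of 1.82, 3.36 and 2.59 against 4.39, 8.74 and 12.85. In the HRD1 KO-labelled libraries it was 3.79, 19.3 and 24.1, so replicate 1 of that group also lay below all WT libraries. SYVN1, the gene of HRD1, was not lower in the HEK293T libraries labelled HRD1 KO (18.5 to 22.5, against 16.7 to 17.0 in WT). SYVN1 was 25.9 to 28.9 in SEL1L KO. Its exons overlap those of FAU on the same strand, which reached an FPKM of 1471, and of MRPL49 on the opposite strand, at most 65.6. In BAT, Syvn1 was 14.1 and 13.8 in the Hrd1 KO-labelled libraries, 118, 16.55 and 9.96 in those labelled Sel1L KO and 5.20 to 5.65 in WT. Sel1l was 25.2, 8.17 and 8.38 in those labelled Sel1L KO, 57.6 and 65.2 in those labelled Hrd1 KO and 9.10 to 12.9 in WT. These groups are therefore given by their labels, and gene-level FPKM does not show which exons the fragments came from. All 8 HEK293T markers were above 0 in every HEK293T library and all 9 brown adipocyte markers in every BAT library, with summed FPKM of 364 to 783 and of 17965 to 26014. Sel1L KO replicate 1 stood apart in BAT: 471 of the 12473 tested genes (3.78%) were at least 2 times as high there as in every other library, against 4 to 185 genes in the others. Results that rest on it are given with and without it.

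All 10 genes passed the filter on low values (an FPKM of at least 1 in 3 HEK293T or 2 BAT libraries) in both tables. FPKM is scaled per length, so levels can be compared between genes of a table. SQSTM1 was the most abundant of the 10 in HEK293T, with a median FPKM of 119 over the 9 libraries, and RETREG1 the least, with 4.32. Between them came RTN3 (80.5), SEC62 (64.5), TEX264 (46.9), MAP1LC3B (39.1), GABARAPL1 (28.6), CALCOCO1 (16.1), ATL3 (8.04) and CCPG1 (7.57). The libraries separated SQSTM1 from RTN3 and CALCOCO1 from ATL3, while every other pair of neighbours in this order overlapped.

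In BAT, Gabarapl1 led with a median FPKM of 116 over the 8 libraries, followed by Map1lc3b (83.3), Sqstm1 (81.9), Rtn3 (64.2) and Tex264 (56.8). Lower levels were seen for Sec62 (34.6), Ccpg1 (30.1), Calcoco1 (30.1), Atl3 (17.7) and Retreg1 (6.87). Neighbours in this order overlapped except Calcoco1 and Atl3, and Atl3 and Retreg1. Retreg1 ended the order in both tables, and Ccpg1 stood at the 70.1 to 84.9 percentile of the tested genes in BAT against the 36.8 to 48.8 percentile in HEK293T. The tables were normalized separately and differ in species, so this shift was not tested.

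**Figure D1:**
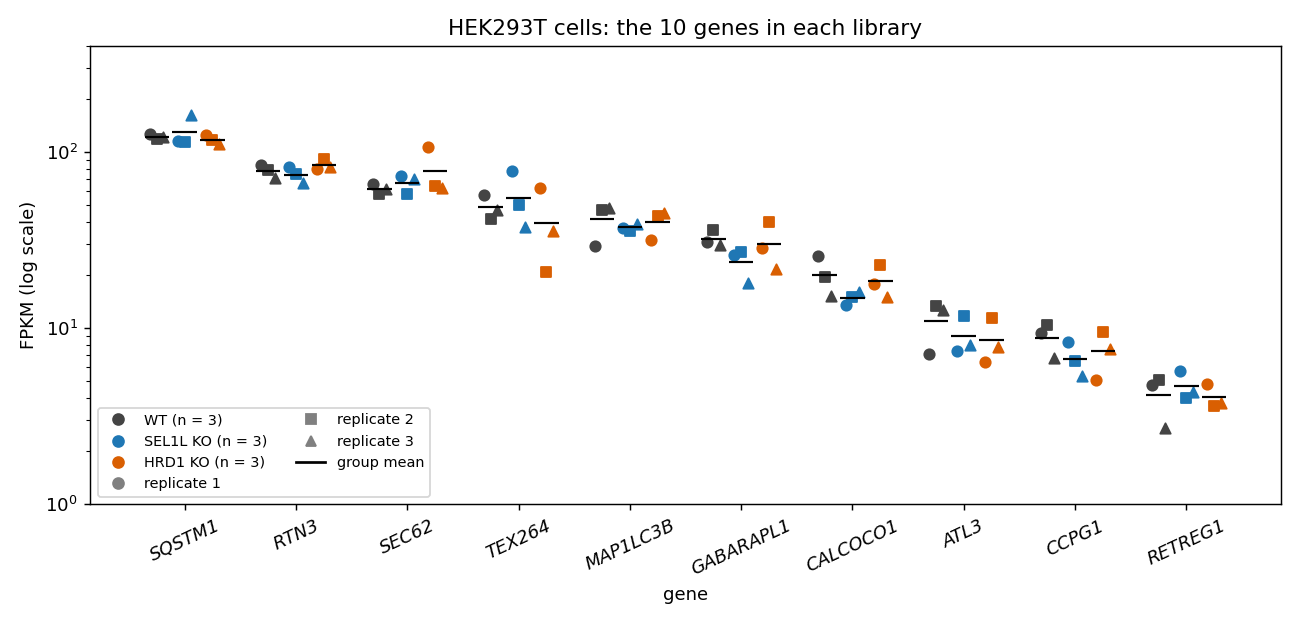
FPKM (log axis) of the 10 genes in the 9 HEK293T libraries, ordered by their median. Each point is a library, colours are genotypes, shapes are replicate numbers and black bars are group means with no error bar. The genotypes overlap for every gene except GABARAPL1, whose SEL1L KO libraries (18.0 to 27.1) lie below the WT libraries (29.5 to 36.3).

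The first question was whether the genes changed in HEK293T cells on loss of HRD1 or SEL1L. None of the 10 passed the threshold (limma, adjusted p under 0.05) in the HRD1 KO-labelled libraries against WT, where 0.057% of the 15796 tested genes were called, in SEL1L KO against WT, where 0.0317% were called, or between the KO groups, where 0% were called. At an unadjusted p under 0.05 the count of the 10 was 0 as well, against 2%, 1.49% and 2.34% of all genes. The libraries of the compared groups did not overlap for 0 of the 10 genes in the first comparison, 1 in the second and 0 in the third, against 5%, 6.13% and 5.18% of all genes. Log2 fold changes of the 10 ran from -0.42 (TEX264) to 0.29 (SEC62) in the HRD1 KO-labelled libraries and from -0.46 (GABARAPL1) to 0.19 (RETREG1) in SEL1L KO. Their medians were -0.08 and -0.09, beside -0.05 and -0.06 for all genes tested. Between the KO groups the changes ran from -0.55 (TEX264) to 0.32 (GABARAPL1), with a median of 0.10 beside 0.0046 for all genes. Standard errors of 0.16 to 0.39 limit what could be seen.

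RETREG1 (ENSG00000154153; GRCh38 chromosome 5, 16473038 to 16617101, minus strand), also known as FAM134B, is a reticulon-like receptor that bends and fragments ER sheets. Its FPKM was 4.73, 5.10 and 2.71 in WT replicates 1 to 3, 5.71, 3.99 and 4.32 in SEL1L KO and 4.79, 3.62 and 3.77 in the HRD1 KO-labelled libraries. WT held both a value above and the value below all HRD1 KO libraries, and the groups overlapped.

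RTN3 (ENSG00000133318; chromosome 11, 63681446 to 63759891, plus strand), whose long isoform is the receptor for ER tubules, had 84.0, 78.6 and 71.3 in WT, 82.2, 74.7 and 66.4 in SEL1L KO and 80.5, 90.9 and 81.9 in the HRD1 KO-labelled libraries. A value per gene does not separate that isoform from the shorter ones. RTN3 varied least of the 10 over the 9 libraries, by 1.37 times from lowest to highest.

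ATL3 (ENSG00000184743; chromosome 11, 63624087 to 63671921, minus strand) is a GTPase that fuses ER tubules and binds GABARAP proteins. It measured 7.10, 13.3 and 12.6 in WT, 7.36, 11.6 and 8.04 in SEL1L KO and 6.39, 11.3 and 7.80 in the HRD1 KO-labelled libraries. Replicate 1 was the lowest and replicate 2 the highest in each of the 3 groups.

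SEC62 (ENSG00000008952; chromosome 3, 169966635 to 169998373, plus strand), a translocon subunit that serves as receptor when the ER shrinks back after stress, had 65.6, 57.8 and 62.0 in WT, 72.7, 57.5 and 70.6 in SEL1L KO and 106, 64.5 and 62.8 in the HRD1 KO-labelled libraries. Only replicate 1 of that last group stood above the range of the other 8 libraries (57.5 to 72.7).

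TEX264 (ENSG00000164081; chromosome 3, 51662693 to 51704323, plus strand) is a single-pass receptor that accounts for much of starvation-induced ER-phagy. It varied most, by 3.77 times, with 56.9, 41.7 and 46.9 in WT, 78.0, 49.7 and 37.4 in SEL1L KO and 62.6, 20.7 and 35.4 in the HRD1 KO-labelled libraries. The KO libraries lay on both sides of WT in each group, and replicate 1 was the highest in each of the 3 groups. Exons of TEX264 overlap those of RAD54L2 on the same strand, which reached an FPKM of at most 10.3.

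CCPG1 (ENSG00000260916; chromosome 15, 55340032 to 55408510, minus strand), a receptor induced by the unfolded protein response, had 9.32, 10.4 and 6.72 in WT, 8.31, 6.46 and 5.32 in SEL1L KO and 5.08, 9.45 and 7.57 in the HRD1 KO-labelled libraries. All groups overlapped. Exons of CCPG1 overlap a readthrough transcript with DNAAF4 on the same strand, which reached an FPKM of at most 0.21, and those of PIGB on the opposite strand, at most 4.86. Whether the counting used strand is not given in the sources used here.

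CALCOCO1 (ENSG00000012822; chromosome 12, 53708517 to 53727745, minus strand), a soluble receptor that reaches the ER through VAP proteins, had 25.6, 19.6 and 15.1 in WT, 13.5, 15.0 and 16.1 in SEL1L KO and 17.7, 22.8 and 14.9 in the HRD1 KO-labelled libraries. SEL1L KO replicate 3 lay above WT replicate 3, so these groups overlapped too.

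The remaining 3 genes belong to the general autophagy machinery. SQSTM1 (ENSG00000161011; chromosome 5, 179806398 to 179838078, plus strand) encodes p62, which ties ubiquitinated cargo to ATG8 proteins and is itself degraded with it. Its FPKM was 126, 119 and 121 in WT, 115, 114 and 162 in SEL1L KO and 124, 117 and 111 in the HRD1 KO-labelled libraries. Only SEL1L KO replicate 3 lay outside the range of 111 to 126 held by the other 8 libraries. SQSTM1 shares exonic bases with the opposite-strand genes MGAT4B and MRNIP, which reached an FPKM of 95.5 and 70.4.

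MAP1LC3B (ENSG00000140941; chromosome 16, 87383953 to 87404779, plus strand) encodes LC3B, the ATG8 protein most used as a mark of autophagosomes. It had 29.4, 46.6 and 48.1 in WT, 37.0, 35.7 and 39.1 in SEL1L KO and 31.6, 43.6 and 44.8 in the HRD1 KO-labelled libraries. WT spanned both KO groups. Its near-identical copy MAP1LC3B2 shares reads with it, and RSEM divides such reads by estimate.

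GABARAPL1 (ENSG00000139112; chromosome 12, 10212458 to 10223128, plus strand) encodes an ATG8 protein of the GABARAP branch. It had 30.9, 36.3 and 29.5 in WT and 26.0, 27.1 and 18.0 in SEL1L KO, with all 3 SEL1L KO libraries below all 3 WT libraries. The libraries labelled HRD1 KO, at 28.6, 39.9 and 21.7, overlapped both. The log2 fold change in SEL1L KO against WT was -0.46 with a standard error of 0.26 (limma, adjusted p = 1), so it did not pass the test. Replicate 2 was the highest and replicate 3 the lowest of each of the 3 groups.

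The same numbers thus went together across genotypes for several of the genes, and the replicate numbers pair the HEK293T libraries over all genes. With the replicate number as a block, 0 of the 10 genes were called in each of the 3 HEK293T comparisons, and GABARAPL1 in SEL1L KO against WT had an adjusted p of 0.857 (limma).

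**Figure D2:**
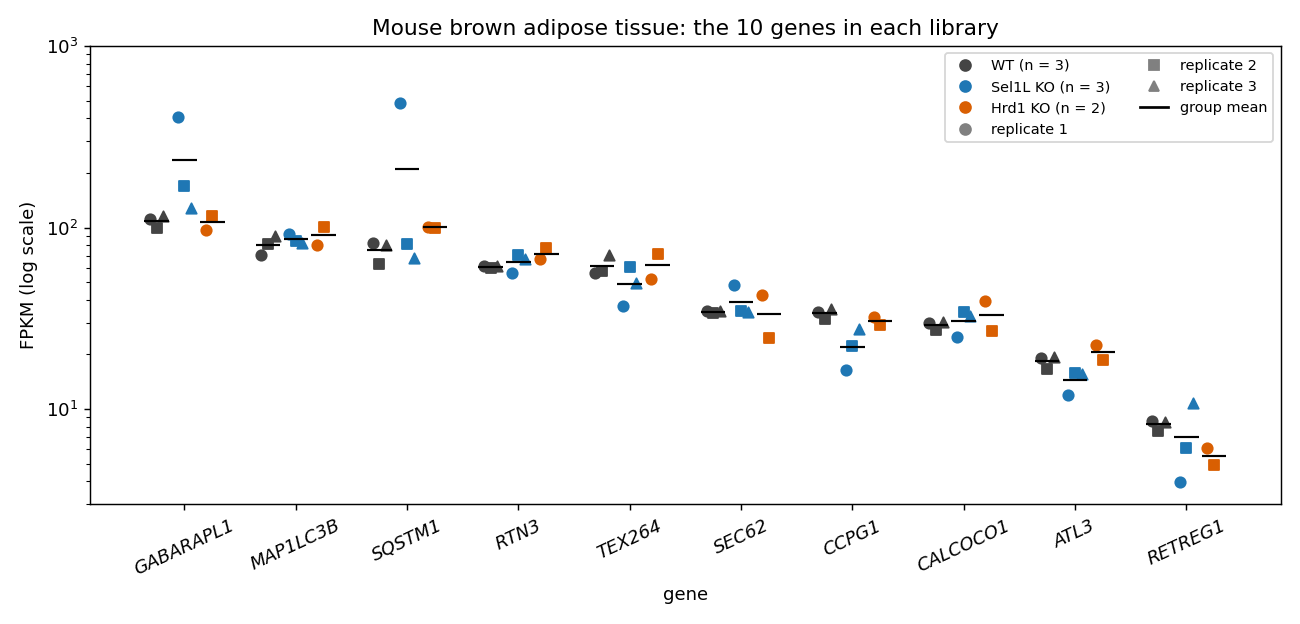
FPKM (log axis) of the 10 genes in the 8 BAT libraries, ordered by their median, with human symbols standing for the mouse genes. Each point is a library, colours are genotypes, shapes are replicate numbers and black bars are group means with no error bar. Sel1L KO replicate 1 lies far above the other libraries for SQSTM1 (482) and GABARAPL1 (406).

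In BAT the same question was asked of whole tissue, in which Cre acts in the brown adipocytes. None of the 10 genes was called (limma, adjusted p under 0.01) in the Hrd1 KO-labelled libraries against WT, where 0.369% of the 12473 tested genes were called, in those labelled Sel1L KO against WT, where 0.104% were called, or between the KO groups, where 0.0401% were called. At an unadjusted p under 0.05 the counts of the 10 were 0, 2 and 2, against 27.4%, 17.8% and 16.7% of all genes. The libraries did not overlap for 3 of the 10 genes in each comparison, against 56.8%, 26.1% and 35.9% of all genes. The shares among the 10 were thus below those of all genes for the Hrd1 KO-labelled libraries and near them elsewhere.

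In this tissue the typical gene did not lie at 0 on the FPKM scale, and whether the scale or the genes moved was not tested. Over all tested genes the median log2 fold change was 0.42 in the Hrd1 KO-labelled libraries against WT, 0.09 in those labelled Sel1L KO and 0.30 between the KO groups. The 10 genes had medians of 0.08, 0.07 and 0.08, and each comparison had 6 genes above 0. After median-ratio scaling, which sets the typical gene near 0, the medians of the 10 were -0.34, -0.02 and -0.25 and the genes above 0 were 1, 4 and 3. Against the typical gene under this scaling, 9 of the 10 thus had lower values in the Hrd1 KO-labelled libraries, none past the test. The count depends on the scaling: quantile normalization gave log2 fold changes of 0.0098 for Rtn3 and 0.20 for Sqstm1 in that comparison.

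**Figure D3:**
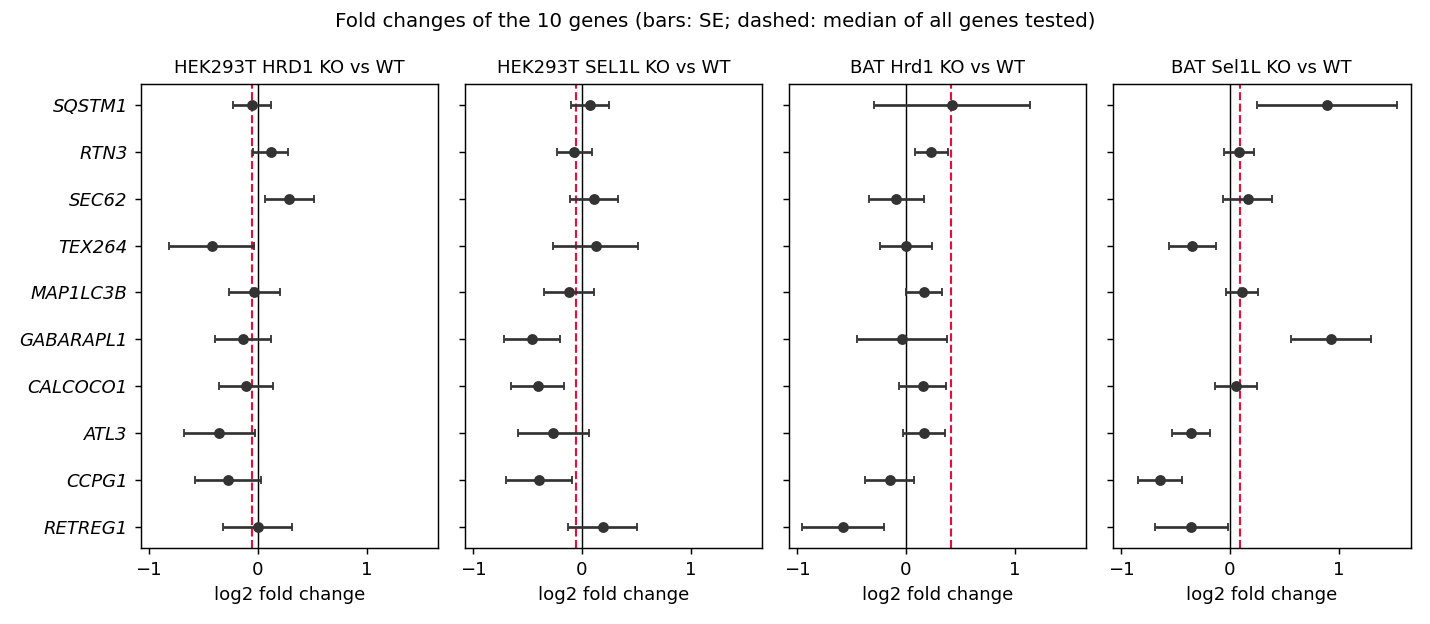
Log2 fold changes on the log2(FPKM + 0.1) scale of the 10 genes (points, with bars for the standard error of the limma fit) in the 4 comparisons of a KO group with WT. The red dashed line is the median of all tested genes, at -0.05, -0.06, 0.42 and 0.09 from left to right, and most genes lie left of it in the BAT panel for Hrd1 KO.

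Mouse Retreg1 (ENSMUSG00000022270; GRCm38 chromosome 15, 25843180 to 25973687, plus strand) measured 8.66, 7.58 and 8.50 FPKM in WT, 3.95, 6.15 and 10.9 in the Sel1L KO-labelled libraries and 6.08 and 4.95 in those labelled Hrd1 KO. Both Hrd1 KO libraries lay below all WT libraries, while the Sel1L KO libraries surrounded them. The log2 fold change in the Hrd1 KO-labelled libraries was -0.58 with a standard error of 0.38 (limma, adjusted p = 0.340), and -0.99 after median-ratio scaling.

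Rtn3 (ENSMUSG00000024758; chromosome 19, 7425901 to 7483281, minus strand) had 61.2, 60.0 and 61.5 in WT, 56.5, 71.0 and 67.1 in the Sel1L KO-labelled libraries and 66.9 and 76.7 in those labelled Hrd1 KO. Both Hrd1 KO libraries lay above WT, with a log2 fold change of 0.23 and a standard error of 0.15 (limma, adjusted p = 0.342). The direction depends on the scale, since median-ratio scaling gave -0.19.

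Atl3 (ENSMUSG00000024759; chromosome 19, 7494040 to 7539674, plus strand) had 19.2, 16.7 and 19.3 in WT, 12.0, 15.9 and 15.5 in the Sel1L KO-labelled libraries and 22.7 and 18.8 in those labelled Hrd1 KO. All Sel1L KO libraries lay below all WT and all Hrd1 KO libraries. Against WT the log2 fold change was -0.35 with a standard error of 0.17 (limma, adjusted p = 0.342), and Hrd1 KO against Sel1L KO it was 0.52 with a standard error of 0.19 (adjusted p = 0.254). Without Sel1L KO replicate 1 these values were -0.23 and 0.39, and median-ratio scaling brought the latter to 0.19 (adjusted p = 0.662).

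Sec62 (ENSMUSG00000027706; chromosome 3, 30792875 to 30821263, plus strand) had 34.8, 33.9 and 34.6 in WT, 48.3, 34.5 and 34.3 in the Sel1L KO-labelled libraries and 42.5 and 24.6 in those labelled Hrd1 KO. The 2 Hrd1 KO mice lay on opposite sides of a narrow WT range.

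Tex264 (ENSMUSG00000040813; chromosome 9, 106658746 to 106685927, minus strand) had 56.4, 57.3 and 70.3 in WT, 36.9, 60.5 and 49.7 in the Sel1L KO-labelled libraries and 52.2 and 71.5 in those labelled Hrd1 KO. Calcoco1 (ENSMUSG00000023055; chromosome 15, 102706777 to 102722178, minus strand) had 30.0, 27.5 and 30.2, then 24.9, 34.3 and 32.8, then 39.2 and 26.9 FPKM in the same order of groups. Each KO group overlapped WT for both genes.

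Ccpg1 (ENSMUSG00000034563; chromosome 9, 72985429 to 73016340, plus strand) had the lowest unadjusted p of the 10. It measured 34.2, 31.3 and 35.8 in WT, 16.4, 22.3 and 27.6 in the Sel1L KO-labelled libraries and 32.0 and 29.0 in those labelled Hrd1 KO. All 3 Sel1L KO libraries lay below all other BAT libraries. Against WT the log2 fold change was -0.64 with a standard error of 0.20 (limma, adjusted p = 0.159), from a mean FPKM of 22.1 ± 5.63 (SD, n = 3) against 33.8 ± 2.29 (n = 3). Without Sel1L KO replicate 1 it was -0.44 (adjusted p = 0.116). Hrd1 KO against Sel1L KO it was 0.49 with a standard error of 0.22 (adjusted p = 0.314), 0.29 without that library and 0.16 after median-ratio scaling (adjusted p = 0.754). Ccpg1 overlaps exons of Pigb on the opposite strand, which reached 4.83 FPKM.

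Among the general autophagy genes, Map1lc3b (ENSMUSG00000031812; chromosome 8, 121590361 to 121598760, plus strand) had 71.0, 80.7 and 89.3 in WT, 92.6, 84.4 and 82.3 in the Sel1L KO-labelled libraries and 80.0 and 101 in those labelled Hrd1 KO. The groups overlapped, and its range over all 8 libraries was 1.43 times.

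Sqstm1 (ENSMUSG00000015837; chromosome 11, 50199366 to 50210827, minus strand) had 82.2, 63.3 and 80.4 in WT, 482, 81.6 and 67.8 in the Sel1L KO-labelled libraries and 101 and 99.4 in those labelled Hrd1 KO. A single mouse, Sel1L KO replicate 1, stood 4.78 times above the next highest library, while the other two Sel1L KO libraries lay within WT. The log2 fold change in the Sel1L KO-labelled libraries was 0.89 with a standard error of 0.64 (limma, adjusted p = 0.522) and -0.0076 without that library, so the difference between the groups rests on it. Both Hrd1 KO libraries were above all WT libraries, with a log2 fold change of 0.42 and a standard error of 0.72 (adjusted p = 0.714). Without Sel1L KO replicate 1 in the fit the standard error was 0.15 and the adjusted p 0.0726. On the median-ratio scale the log2 fold change was 0.00081. Hrd1 KO against Sel1L KO it was -0.47, and 0.43 without Sel1L KO replicate 1.

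Gabarapl1 (ENSMUSG00000030161; chromosome 6, 129533160 to 129542346, plus strand) had 111, 99.8 and 116 in WT, 406, 170 and 128 in the Sel1L KO-labelled libraries and 96.9 and 116 in those labelled Hrd1 KO. All 3 Sel1L KO libraries were above the other 5, with replicate 1 at 2.39 times the next highest. Against WT the log2 fold change was 0.93 with a standard error of 0.37 (limma, adjusted p = 0.247), and without that library it was 0.44 (adjusted p = 0.145). Hrd1 KO against Sel1L KO it was -0.96 with a standard error of 0.41 (adjusted p = 0.295), and -0.47 without it. The libraries labelled Hrd1 KO overlapped WT.

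Sel1L KO replicate 1 also held the lowest value of all 8 libraries for Retreg1, Ccpg1, Rtn3, Tex264, Calcoco1 and Atl3, so that its high values were not a feature of the whole group of 10. Markers of other cells differed between the BAT groups. The summed FPKM of 6 macrophage markers was 11.3 to 16.7 in the 5 KO libraries and 6.98 to 7.35 in WT, and that of 3 fibroblast markers 96.9 to 114 against 49.8 to 74.3. The 3 endothelial markers summed to 61.4 to 123 in KO and 55.9 to 78.2 in WT. The 7 skeletal muscle markers summed to 309 in Hrd1 KO replicate 1, 55.8 in Sel1L KO replicate 1, 10.8 in Hrd1 KO replicate 2 and 0.95 to 5.37 elsewhere. No macrophage, fibroblast or endothelial marker was at 0 in a library, and the muscle marker Myh4 was at 0 in 4 of the 8. Brown adipocyte markers summed to 17965 to 23805 in KO and 24004 to 26014 in WT. Fabp4 alone was 15079 of the 23805 in Sel1L KO replicate 1, so this sum does not describe each marker. The part of all these cell markers in the values of the 10 genes was not tested. Muscle markers differed most between Hrd1 KO replicates 1 and 2. In these 2 mice Sqstm1 was 101 and 99.4, Sec62 42.5 and 24.6, and Calcoco1 39.2 and 26.9. Retreg1, Ccpg1 and Atl3 were also higher in replicate 1. Rtn3 (66.9 and 76.7), Tex264 (52.2 and 71.5), Map1lc3b (80.0 and 101) and Gabarapl1 (96.9 and 116) were higher in replicate 2.

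The genes that work with the 10 were read from 7 lists: ER-phagy relatives and UFMylation, other ATG8 proteins, other cargo receptors, initiation and PI3K complexes, phagophore growth and lipidation, fusion with lysosomes, and transcription factors of autophagy genes. In HEK293T none of their tested members was called in any comparison, and the medians of the lists lay between -0.20 and 0.16 on the log2 scale. Of the initiation complexes, 1 of 12 genes had an unadjusted p under 0.05: ATG101, a subunit of the ULK1 complex, had an FPKM of 65.5, 46.0 and 44.3 in the HRD1 KO-labelled libraries and 38.8, 31.4 and 37.2 in WT. Its log2 fold change was 0.52 with a standard error of 0.20 (limma, adjusted p = 1). Of phagophore growth, 1 of 17 had such a p: WIPI1, which binds the lipid made by the PI3K complex, had a log2 fold change of 0.88 with a standard error of 0.38 (adjusted p = 1). WIPI1 had an FPKM of 4.27, 7.75 and 8.95 in the HRD1 KO-labelled libraries and 4.52, 3.76 and 2.67 in WT, so these overlapped. Of all tested genes, 2% had an unadjusted p under 0.05 in this comparison of HRD1 KO with WT. In the other lists and comparisons of HEK293T no list gene had such a p.

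In BAT, 1 gene of these lists was called, in Hrd1 KO against WT, where 0.369% of the 12473 tested genes were called. Cdk5rap3, an adaptor of the UFMylation ligase, which attaches the small protein UFM1 to ribosomes at the ER and has been tied to ER-phagy, rose in the Hrd1 KO-labelled libraries. Its FPKM was 43.0 and 37.5 there, 27.2, 31.0 and 29.7 in those labelled Sel1L KO and 13.6, 12.8 and 11.3 in WT. The log2 fold change was 1.67 with a standard error of 0.16 (limma, adjusted p = 0.00468). After median-ratio scaling it was 1.25 (adjusted p = 0.027), which misses the threshold of 0.01, and without Hrd1 KO replicate 1 the adjusted p was 0.056. The call held without Sel1L KO replicate 1 or 3 and was lost without any one of the other 6 libraries. In the Sel1L KO-labelled libraries it was 1.22 with a standard error of 0.15 (adjusted p = 0.0155), and 1.27 (adjusted p = 0.00641) without Sel1L KO replicate 1. In that last fit 61 genes of the whole table were called. All 5 KO libraries were above all 3 WT libraries.

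**Figure D4:**
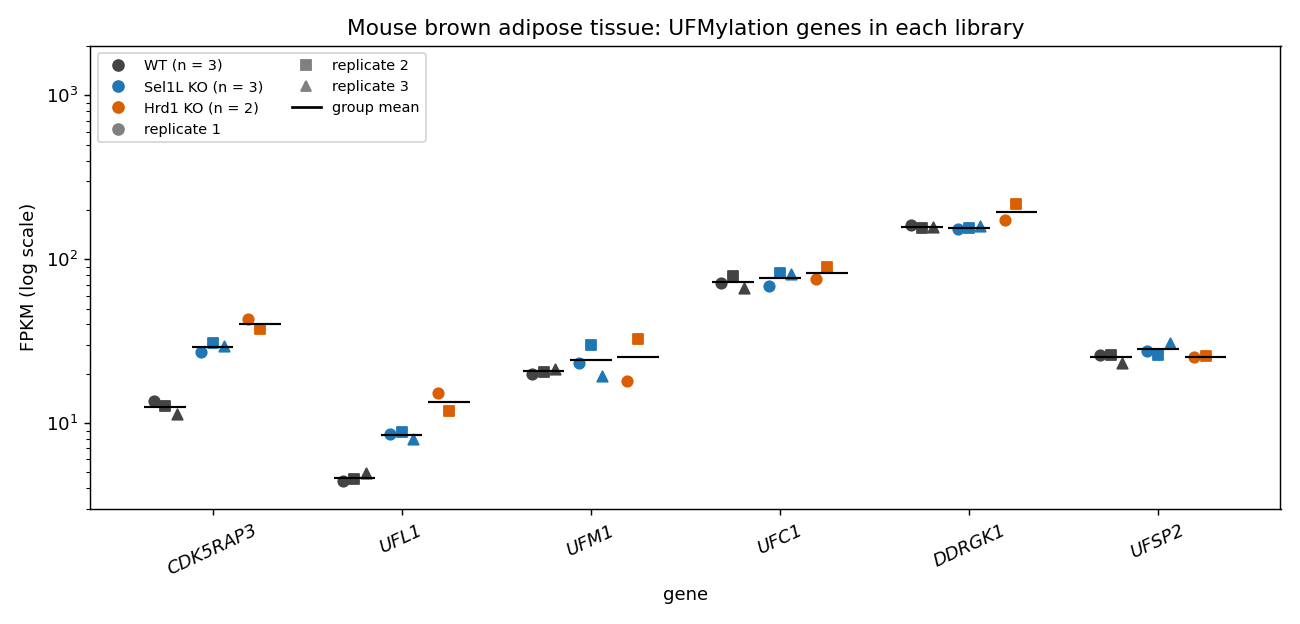
FPKM (log axis) of 6 UFMylation genes in the 8 BAT libraries, with human symbols standing for the mouse genes. Each point is a library, colours are genotypes, shapes are replicate numbers and black bars are group means with no error bar. For CDK5RAP3 and UFL1 all 5 KO libraries lie above all 3 WT libraries, and for the other 4 genes they overlap in at least 1 KO group.

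The same list held Ufl1, the ligase itself, singled out once its values were known. It had 15.2 and 11.8 FPKM in the Hrd1 KO-labelled libraries, 8.54, 8.79 and 8.05 in those labelled Sel1L KO and 4.46, 4.53 and 4.96 in WT, so all 5 KO libraries were above all 3 WT libraries. Its log2 fold change in the Hrd1 KO-labelled libraries was 1.51 with a standard error of 0.19 (limma, adjusted p = 0.0107), short of 0.01. It passed without Sel1L KO replicate 1 (adjusted p = 0.0021, limma), a fit in which 775 genes of the whole table were called. In the Sel1L KO-labelled libraries the change of Ufl1 was 0.85 with a standard error of 0.17 (adjusted p = 0.0692). Of the 10 tested genes of this list, 3 higher and 1 lower had an unadjusted p under 0.05 in the Hrd1 KO-labelled libraries, and 3 higher and 0 lower in those labelled Sel1L KO, beside 27.4% and 17.8% of all tested genes. The list's median was 0.29 and 0.13, or -0.13 and 0.04 after median-ratio scaling.

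In the other 6 lists no gene was called in BAT with all libraries in the fit. Without Sel1L KO replicate 1, Tmem41b was called higher (adjusted p = 0.00502, limma) and Foxo1 lower (adjusted p = 0.00116) in Hrd1 KO against WT. In that fit 775 genes of the whole table were called, against 46 with all libraries. The library left out belongs to neither compared group, so leaving it out changes the estimate of the spread and not the fold changes. For the Hrd1 KO-labelled libraries against WT, an unadjusted p under 0.05 was found for 1 of 3 other ATG8 genes, 4 of 9 cargo receptors, 1 of 12 initiation genes, 4 of 17 phagophore genes and 2 of 6 fusion genes, all higher, and for 2 higher and 1 lower of 5 transcription factors. Over all tested genes the share was 27.4%, with 3165 higher and 252 lower, so most such genes of the whole table had that direction. Tfeb and Tfe3, which drive lysosomal and autophagy genes, had log2 fold changes of 0.82 and 0.76 (limma, adjusted p = 0.0513 and 0.0574), and 0.40 and 0.34 after median-ratio scaling. Optn and Nbr1, cargo receptors like p62, had 0.65 and 0.59 (adjusted p = 0.0513 and 0.0582), and 0.23 and 0.17 after scaling. Tmem41b, an ER lipid scramblase needed for phagophore growth, had 1.27 and Vmp1, which acts with it, 0.76 (adjusted p = 0.0444 and 0.0663). Ykt6 and Plekhm1 of the fusion list had 0.63 and 0.84 (adjusted p = 0.0502 and 0.0918), Ambra1 of the initiation list 0.91 (adjusted p = 0.0894) and Map1lc3a 0.40 (adjusted p = 0.151, and -0.02 after scaling).

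For the Sel1L KO-labelled libraries against WT, the counts at an unadjusted p under 0.05 were 0 of 3 ATG8 genes, 2 higher of 9 cargo receptors, 1 higher and 1 lower of 12 initiation genes, 3 higher and 1 lower of 17 phagophore genes, and 0 of the 6 fusion genes and 5 transcription factors, beside 17.8% of all tested genes. Atg7, the enzyme that activates ATG8 proteins, had a log2 fold change of -0.75 and Ulk1, the kinase that starts autophagy, -0.59 (limma, adjusted p = 0.0907 and 0.115). Atg5, part of the complex that joins ATG8 to lipid, had 0.57 and Nrbf2, of the PI3K complex, 0.68 (adjusted p = 0.148 and 0.273). Sel1L KO replicate 1 held the highest FPKM for Atg5 (10.3 against at most 8.82) and Nrbf2 (65.3 against at most 48.9). The same library held the lowest for Ulk1 (6.55 against at least 7.4). Changes of these genes without that library are not given here. Optn and Nbr1 had 0.47 and 0.39 (adjusted p = 0.136 and 0.186). Foxo1, a transcription factor of autophagy genes singled out once its values were known, had 19.7 in Sel1L KO replicate 1, 4.24 and 3.93 in the other two, 4.55 and 5.01 in those labelled Hrd1 KO and 15.9, 14.1 and 14.0 in WT. Without Sel1L KO replicate 1 it fell by 1.82 on the log2 scale in Sel1L KO (adjusted p = 0.00219, limma) and by 1.60 in Hrd1 KO (adjusted p = 0.00116). In these fits 61 and 775 genes of the whole table were called. With all libraries in the fit Foxo1 was not called in either comparison, and its unadjusted limma p in Sel1L KO was not under 0.05.

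Between the KO groups in BAT, Ulk1 and Atg14, both of the initiation list, were the 2 of 12 genes with an unadjusted p under 0.05, with Hrd1 KO minus Sel1L KO differences of 0.92 and 0.95 on the log2 scale (limma, adjusted p = 0.111 and 0.199). Atg7 and Wipi1 led 4 of 17 phagophore genes with 0.73 and 0.64 (adjusted p = 0.187 and 0.209), and Map1lc3a stood alone among 3 ATG8 genes with 0.58 (adjusted p = 0.191). Median-ratio scaling lowered these 5 differences to between 0.25 and 0.63. Sel1L KO replicate 1 held the lowest FPKM of all BAT libraries for Ulk1 (6.55), Atg14 (1.95), Wipi1 (5.52) and Map1lc3a (149). Differences without that library are not given here. The lists of ER-phagy relatives and UFMylation, cargo receptors, fusion genes and transcription factors had 4 of 10, 1 of 9, 2 of 6 and 2 of 5 genes at an unadjusted p under 0.05, all higher in the Hrd1 KO-labelled libraries and none past the threshold. Of all tested genes 16.7% had such a p, with 1933 higher and 147 lower.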

How the data were processed

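PolyA-enriched RNA was sequenced as paired reads from 9 HEK293T and 8 BAT libraries, all on the same flow cell. The authors mapped reads with STAR 2.7.8a to GRCh38 or GRCm38 and estimated abundance with RSEM 1.3.3, and the values they deposited are FPKM per gene and library. The authors ran DESeq2 on estimated counts, which FPKM cannot replace. FPKM is relative to each library's total, so very abundant genes shift all others. The number of value columns not used was 0. Groups came from the sample labels.

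Each table was fitted with limma 3.58.1 in R 4.3.3 (variance trend, 3 groups in a fit) on log2(FPKM + 0.1), which understates changes of low genes. Tested genes reached an FPKM of 1 in at least 3 HEK293T or 2 BAT libraries, with Benjamini-Hochberg adjustment over all 15796 or 12473 of them and thresholds of 0.05 and 0.01. The fit was tested on simulated data. The 10 genes and the lists were chosen with earlier results of these data known. A fold change is given where the unadjusted p was under 0.05 or the libraries did not overlap; in the other lists the called genes are named, or else up to 2 with an unadjusted p under 0.05, by smallest p. An item of the lists is not reported here. Positions are those of GENCODE v44 and vM21. Python 3.11.15, the data.table package (1.17.8), pandas 2.3.3, numpy 2.4.6 and matplotlib 3.10.9 handled tables and plots.

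Depth in reads is unknown. Relative depth, from the FPKM step that 1 fragment makes in 3256 and 1730 low genes, varied 1.89 times between HEK293T and 1.76 times between BAT libraries, so low genes are less certain in the shallower ones. Libraries of a group correlated at 0.871 to 0.942 (HEK293T) and 0.874 to 0.955 (BAT) over log2 values. In HEK293T the deviations from group means correlated at 0.216 to 0.485 for the 9 pairs with the same replicate number and -0.40 to 0.027 for the 18 others, so the numbers pair the libraries. The sources do not say what a number stands for. The p-values of the main fit rest on the spread between these samples, which includes the differences between replicate numbers. Alternatives were another pseudocount, no filter, median-ratio and quantile scaling, no variance trend, 2 groups in a fit, a replicate block, unadjusted p-values and leaving out each library.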

Additional observations from a re-analysis of the deposited data

Results flagged for a closer look

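GABARAPL1 went opposite ways in the 2 tables in the libraries labelled SEL1L KO against WT. The log2 fold change against WT was -0.46 in HEK293T, where all 3 SEL1L KO libraries lay below all 3 WT libraries, and 0.93 in the BAT libraries labelled Sel1L KO, where all 3 lay above all 3 WT libraries. The difference was not tested, since the tables differ in species and were normalized separately, and neither change passed the test within its table (limma, adjusted p = 1 and 0.247). Libraries of these 2 groups did not overlap for 6.13% of all tested genes in HEK293T and 26.1% in BAT. Without Sel1L KO replicate 1 the BAT value was 0.44. No test for outliers within a group was run on single genes, as each group held 2 or 3 libraries.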

How the results depend on the processing

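The count of called genes among the 10 was 0 in all 6 comparisons under each alternative that kept the adjusted p, also without each library in turn. With the unadjusted p it was 2 in BAT Sel1L KO against WT and 2 in BAT Hrd1 KO against Sel1L KO. Median-ratio scaling turned Rtn3 in BAT Hrd1 KO against WT to -0.19 on the log2 scale. Leaving out each library in turn gave Sqstm1 -0.0076 to 1.41 in BAT Sel1L KO against WT and -0.99 to 0.43 in Hrd1 KO against Sel1L KO, both added after seeing the data. GABARAPL1 in HEK293T SEL1L KO against WT ran from -0.57 to -0.27. Under the replicate block, members called stayed at 0 in HEK293T, and the block changed no other call among the 10. In BAT, same-number pairs correlated at only -0.06 to 0.08, so libraries share only a number, and the block called 0 of the 10 as well.

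The number of all genes called, which the shares beside the 10 rest on, moved widely. In BAT Hrd1 KO against WT it was 46, and 1 to 775 without each library, 775 without Sel1L KO replicate 1 and 1 without any one WT library. It was 5 with median-ratio scaling, 18 with quantile normalization, 378 with 2 groups in the fit and 5 with the replicate block. In BAT Sel1L KO against WT it was 13, and 1 to 61 without each library. In HEK293T it was 9 and 5 against WT, and 25 and 12 with the replicate block. Depth in reads is unknown, and genes with few fragments are the least certain.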

Other observations

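Several genes beside Sqstm1 and Gabarapl1 were high in Sel1L KO replicate 1 of BAT, and were picked out once their values were known. Atg101, of the ULK1 complex, had an FPKM of 316 there, 7.12 times the next highest of the 8 libraries, and 24.1 to 44.4 in the others. Bnip3, a receptor for mitophagy, had 728 against at most 410. Among brown adipocyte markers, Ppargc1a, a coactivator of mitochondrial and thermogenic genes, had 387 against 4.13 to 14.4, and Dio2, which activates thyroid hormone, 286 against 4.69 to 41.6. Ucp1 was also highest there (3453 against at most 2709), whereas Cidea (2405) and Adipoq (446) were the lowest of the 8, and Plin1, Cox7a1, Fabp4 and Prdm16 lay within the range of the other libraries. Ulk2, Atg14 and Retreg3 were lowest in the same library, with 5.16 against at least 9.05, 1.95 against at least 2.24 and 9.93 against at least 22.0.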
